A study of Homo sapiens with 16 samples.

Results

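The target genes by which WNT signalling is read in the gut were followed through a microarray experiment on Caco-2 cells. The 9 genes were AXIN2, NKD1, RNF43, LGR5, ASCL2, SOX9, MYC, CCND1 and TCF7. They were taken by gene name, with every probe that was not a control, which gave 16 probes of the 41000 on the array, and all 16 were tested. The question behind the experiment was what gliadin does to gene expression when epithelial cells meet it without immune cells. Undifferentiated Caco-2 cells, a line from a human colon carcinoma, were stimulated for 6 h with gliadin digested by pepsin and trypsin (PT-G), with the pepsin and trypsin mixture carried through the same steps without any substrate (PT), or with 150 µg/ml of the synthetic gliadin peptide p31-43. Untreated cells (MED-CTL) stayed in the medium that all groups shared, MEM with a low amount of fetal calf serum. The enzymes of both digests had been inactivated by heat, and the concentration of the digests is not given in the sources used here. Each group had 4 arrays from 4 experiments on cells a passage or more apart, and no normal epithelium or cell line with an intact WNT pathway was included. Whether fewer cells express a gene or each cell holds less of its RNA cannot be told apart in such bulk samples.

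In WNT signalling, a secreted WNT binds a Frizzled receptor and an LRP co-receptor, the destruction complex built around APC and AXIN is switched off, and beta-catenin enters the nucleus to drive transcription with TCF/LEF factors. Caco-2 cells are known to carry a truncated APC, so that beta-catenin escapes destruction and the target genes are already active without a ligand. The arrays do not read that mutation. Of 2 APC probes the brighter one was read, and it was dim, at a mean log2 level of 6.75. It was above background on 15 of 16 arrays and was called in no comparison. Of the genes followed here, AXIN2, NKD1 and RNF43 restrain the pathway that switches them on. LGR5, ASCL2 and SOX9 mark or maintain crypt stem and progenitor cells, MYC and CCND1 drive proliferation, and TCF7 encodes one of the TCF/LEF factors.

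TCF/LEF factors recognise a short core, searched here as CTTTGAA or as CTTTGAT, with CTTTGTA and with CTTTGTT as the other spellings, on either strand, and promoter windows of 300 bases were at hand for RNF43 and TCF7. These sequences come from RefSeq (build GRCh38.p14) and run 5′ to 3′ on the gene's strand from 250 bases before a start of the gene to 50 after it. The windows below are shown because one holds a match, in capitals, and the other does not.
TCF7, chr5:134123368-134123667, plus strand: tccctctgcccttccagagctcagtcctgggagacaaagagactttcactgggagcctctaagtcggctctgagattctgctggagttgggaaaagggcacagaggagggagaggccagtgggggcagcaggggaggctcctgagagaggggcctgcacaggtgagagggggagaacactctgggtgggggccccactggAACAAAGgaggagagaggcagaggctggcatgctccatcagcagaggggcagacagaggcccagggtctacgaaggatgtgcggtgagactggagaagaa
RNF43, chr17:58417485-58417784, minus strand: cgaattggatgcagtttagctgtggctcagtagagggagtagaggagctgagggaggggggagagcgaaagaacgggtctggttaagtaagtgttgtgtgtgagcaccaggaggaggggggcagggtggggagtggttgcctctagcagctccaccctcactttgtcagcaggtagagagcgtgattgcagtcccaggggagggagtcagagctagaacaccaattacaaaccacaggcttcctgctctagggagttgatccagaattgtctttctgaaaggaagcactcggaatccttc
The TCF7 match is CTTTGTT on the minus strand and begins 50 bases before the start of the gene. Of the 4 windows listed for TCF7 and RNF43, 1 holds a match, and of all 35116 windows of that length 13.8% do. These are matches of letters and describe the windows only.

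Levels are log2 values of the foreground signal, made comparable between arrays with the quantiles method and not corrected for background, so that a change is relative to the other genes and is understated where the signal is dim. The spots were counted as well above background by the image analysis for 13 of the 16 probes on all 16 arrays, and no spot of these genes was saturated. The other probes, the only one of LGR5, a second one of ASCL2 and a second one of MYC, were above background on 15, 14 and 15 arrays. A gene with several probes is described by its brightest, and probes were called at a nominal p under 0.01, the threshold of the study's methods, with the Benjamini-Hochberg adjusted p over all 40982 probes tested beside it.

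AXIN2 and ASCL2 fell with both digests and MYC rose with PT-G, while no gene was called for p31-43 by its brightest probe. PT-G against MED-CTL called 4 of the 16 probes, where 3.43% of all probes were called. Of these, 3 were lower, 2 of AXIN2 and 1 of ASCL2, where 1.51% of all probes were lower and called, and 1 of MYC was higher. PT against MED-CTL called 3, where 3.64% of all probes were called, and all 3 were lower, where 1.88% were. At an adjusted p under 0.05, limma called 2 for PT-G and 3 for PT, where 0.93% and 0.83% of all probes passed. The PT-G and MED-CTL arrays did not overlap on 4 of the 16 probes, where they did not on 3.86% of all, and the PT and MED-CTL arrays on 4, where they did not on 5.04%. By their brightest probes, 3 of the 9 genes were called for PT-G and 2 for PT. The median log2 fold change of the 9 genes was −0.14 for PT-G and −0.31 for PT, against −0.0056 and −0.0125 over all probes. The untreated arrays are the same in both, so PT-G and PT are not separate evidence of a shared response.

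**Figure D1:**
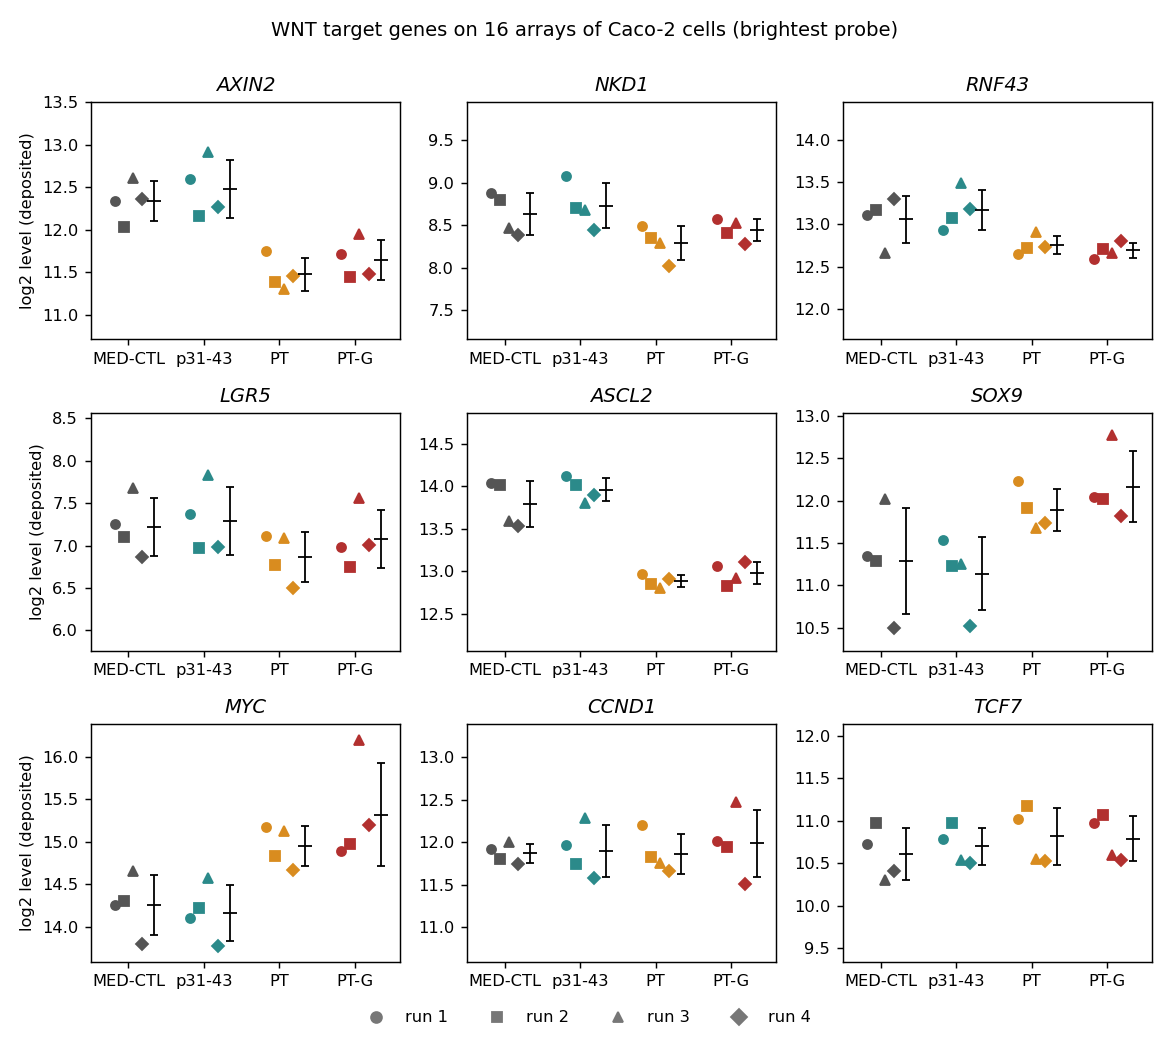
Log2 level of the brightest probe of each gene on the 16 arrays by group, with the symbol giving the run of arrays and the bar the mean and SD of 4 arrays. All panels span the same number of log2 units. For AXIN2 and ASCL2 every PT and PT-G array lies below every MED-CTL and p31-43 array, and for MYC every one lies above.

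AXIN2 encodes the scaffold of the destruction complex and is the most widely used reporter of beta-catenin activity. On its brightest probe, the MED-CTL arrays read 12.03, 12.34, 12.61 and 12.36 in replicates 1 to 4. The PT-G arrays read 11.72, 11.45, 11.95 and 11.48, and the PT arrays 11.75, 11.39, 11.30 and 11.46. Thus all 8 digest arrays were below the lowest untreated array. The p31-43 arrays, at 12.60, 12.16, 12.91 and 12.27, lay within and above the range of untreated cells. The log2 fold change was −0.69 for PT-G (SE 0.17, limma adjusted p = 0.103, a 1.61-fold lower level) and −0.86 for PT (SE 0.17, limma adjusted p = 0.0368, 1.82-fold lower). For PT-G the nominal p passed the study's threshold and the adjusted p did not pass 0.05.

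The other AXIN2 probes differed in how clearly they showed this. A probe 253 bases from the brightest had group means of 9.66 ± 0.10 in MED-CTL, 9.62 ± 0.24 in p31-43, 8.72 ± 0.11 in PT and 8.85 ± 0.18 in PT-G (SD, n = 4). It fell by 0.81 on the log2 scale with PT-G (limma adjusted p = 0.00473) and by 0.93 with PT (limma adjusted p = 0.00254). Over the 16 arrays these probes of AXIN2 correlated with r = 0.94. A dimmer probe, 28999 bases away, gave −0.38 for PT-G and −0.26 for PT and was not called in either, and its r with the brightest was 0.29.

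NKD1, which binds Dishevelled and dampens the signal, had smaller differences. Its means were 8.63 ± 0.24 in MED-CTL, 8.73 ± 0.26 in p31-43, 8.29 ± 0.20 in PT and 8.45 ± 0.13 in PT-G (SD, n = 4). The untreated arrays spanned 8.38 to 8.88 and overlapped both digests, which reached 8.49 and 8.57. The log2 fold change was −0.34 for PT (95% interval −0.66 to −0.02) and −0.19 for PT-G (−0.50 to 0.13), neither of them called.

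RNF43 is a membrane ubiquitin ligase that removes Frizzled receptors from the cell surface. On its single probe, the untreated arrays read 13.17, 13.11, 12.66 and 13.30, so that 1 array stood well below the other 3. The PT-G arrays read 12.60, 12.71, 12.67 and 12.80, and the PT arrays 12.65, 12.73, 12.91 and 12.73. Only the low untreated array overlapped them. The log2 fold change was −0.37 for PT-G (95% interval −0.66 to −0.08) and −0.31 for PT (−0.60 to −0.02), short of the threshold. Without MED-CTL replicate 3, the low one, they were −0.50 and −0.44 and both were called (limma adjusted p = 0.0653 and adjusted p = 0.131), and the PT-G difference was also called without p31-43 replicate 3. Array weights and the early runs alone called both as well.

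Among the stem cell genes, ASCL2, a basic helix-loop-helix factor of the crypt base, gave the clearest difference of all 9. Its brightest probe read 14.02, 14.04, 13.59 and 13.54 in untreated cells. In PT-G treated cells it read 13.07, 12.83, 12.92 and 13.11, and in PT treated cells 12.96, 12.85, 12.81 and 12.91. The gap between the lowest untreated and the highest digest array was wider than the spread among the 8 digest arrays. ASCL2 fell by 0.82 on the log2 scale with PT-G (SE 0.12, limma adjusted p = 0.00473, 1.76-fold lower) and by 0.91 with PT (SE 0.12, limma adjusted p = 0.00285, 1.88-fold lower). With p31-43 the readings were 14.13, 14.02, 13.81 and 13.90, a log2 fold change of 0.17 (95% interval −0.09 to 0.42).

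A second ASCL2 probe, 1433 bases away, was dim and not well above background on 2 digest arrays. It gave −0.52 for PT-G and −0.53 for PT, neither called (limma adjusted p = 0.389 and adjusted p = 0.333). The fold of this dim probe depends most on how the background is treated, with log2 fold changes of −1.28 for both digests from the background-subtracted signal. That signal called it for both (limma adjusted p = 0.256 and adjusted p = 0.241). Alternatives that called this probe numbered 10 for PT-G and 11 for PT. Among them were blocks for replicate number, run, slide, period and scan day, array weights and the early runs alone. It was also called when MED-CTL replicate 3 or MED-CTL replicate 4 was left out.

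LGR5, the R-spondin receptor that marks crypt base stem cells, was near the lower end of what the arrays could read. Untreated arrays lay between 6.86 and 7.67, p31-43 arrays between 6.97 and 7.83, PT arrays between 6.50 and 7.11 and PT-G arrays between 6.75 and 7.56. All 4 groups overlapped. The log2 fold change was −0.36 for PT (95% interval −0.86 to 0.14) and −0.14 for PT-G (−0.64 to 0.36), neither called. From the background-subtracted signal the values were −0.61 (SE 0.33) for PT and −0.26 (SE 0.33) for PT-G, also not called, so the size of a difference in LGR5 is poorly bounded.

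SOX9, an HMG-box factor of crypt progenitors, had the widest spread in untreated cells, where the arrays read 11.29, 11.35, 12.01 and 10.49. The PT-G arrays read 12.05, 12.02, 12.77 and 11.82, and the PT arrays 12.23, 11.91, 11.68 and 11.74. Untreated replicate 3 was the one that reached into both digest groups. The log2 fold change was 0.88 for PT-G (95% interval 0.24 to 1.52, limma adjusted p = 0.304) and 0.60 for PT (−0.04 to 1.24), so neither was called. For PT-G the difference was called in 12 alternatives, and its nominal limma p ran from 0.000266 to 0.126 over all of them. Median scaling, the filter on dim probes, array weights, the intensity trend and the early runs alone were among the 12. So were the fits without MED-CTL replicate 3, where it was 1.12, and without p31-43 replicate 4 or PT-G replicate 4. For PT it was called in 3, the slide as a block, array weights and the early runs alone.

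MYC, the proliferation factor through which much of the crypt programme runs, moved opposite to AXIN2. Untreated cells read 14.31, 14.25, 14.66 and 13.79 on its brightest probe. PT-G treated cells read 14.89, 14.98, 16.21 and 15.20, and PT treated cells 15.17, 14.84, 15.13 and 14.67. Every digest array was above the untreated range, PT replicate 4 by a narrow margin, and PT-G replicate 3 stood far above the rest. MYC rose by 1.07 with PT-G (SE 0.27, limma adjusted p = 0.103, 2.09-fold higher), which passed the nominal threshold and not the adjusted one. In the early runs alone the value was 0.65 and in the late runs alone 1.48. Within the late runs it was 1.55 in run 3, which holds that high array, and 1.41 in run 4, which does not. For PT the log2 fold change was 0.70 (SE 0.27, limma adjusted p = 0.399), not called although the groups did not overlap, and called when PT-G replicate 3 was left out of the shared estimate of the spread. That was 1 of 7 alternatives that called it, with array weights and the early runs alone among the others.

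The MYC probes did not behave as one. A dim probe 4811 bases away gave 0.80 for PT-G and 0.54 for PT, neither called, with an r of 0.64 to the brightest. The probe 5453 bases away, matched by the array's annotation to another MYC transcript record, gave −0.21 for PT-G and −0.25 for PT with an r of −0.19. That probe read 7.31, 7.56, 7.45 and 7.11 in untreated cells and 7.15, 7.05, 6.81 and 7.05 with p31-43, so that 1 array of p31-43 lay inside the untreated range. Its value of −0.34 on the log2 scale (SE 0.11, limma adjusted p = 0.9999) was the only call among these genes for the peptide.

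CCND1, the G1 cyclin D1, did not separate the groups on any of its 3 probes. On the brightest the means were 11.87 ± 0.12 in MED-CTL, 11.89 ± 0.31 in p31-43, 11.86 ± 0.24 in PT and 11.99 ± 0.39 in PT-G (SD, n = 4). The log2 fold change was 0.12 for PT-G (95% interval −0.29 to 0.53) and −0.01 for PT (−0.41 to 0.40), intervals that leave room for changes smaller than that of MYC. TCF7, which encodes TCF1, had means of 10.61 ± 0.31, 10.70 ± 0.22, 10.82 ± 0.33 and 10.79 ± 0.26 in MED-CTL, p31-43, PT and PT-G (SD, n = 4). Its log2 fold changes of 0.19 for PT-G (−0.22 to 0.60) and 0.21 for PT (−0.20 to 0.62) were not called.

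**Figure D2:**
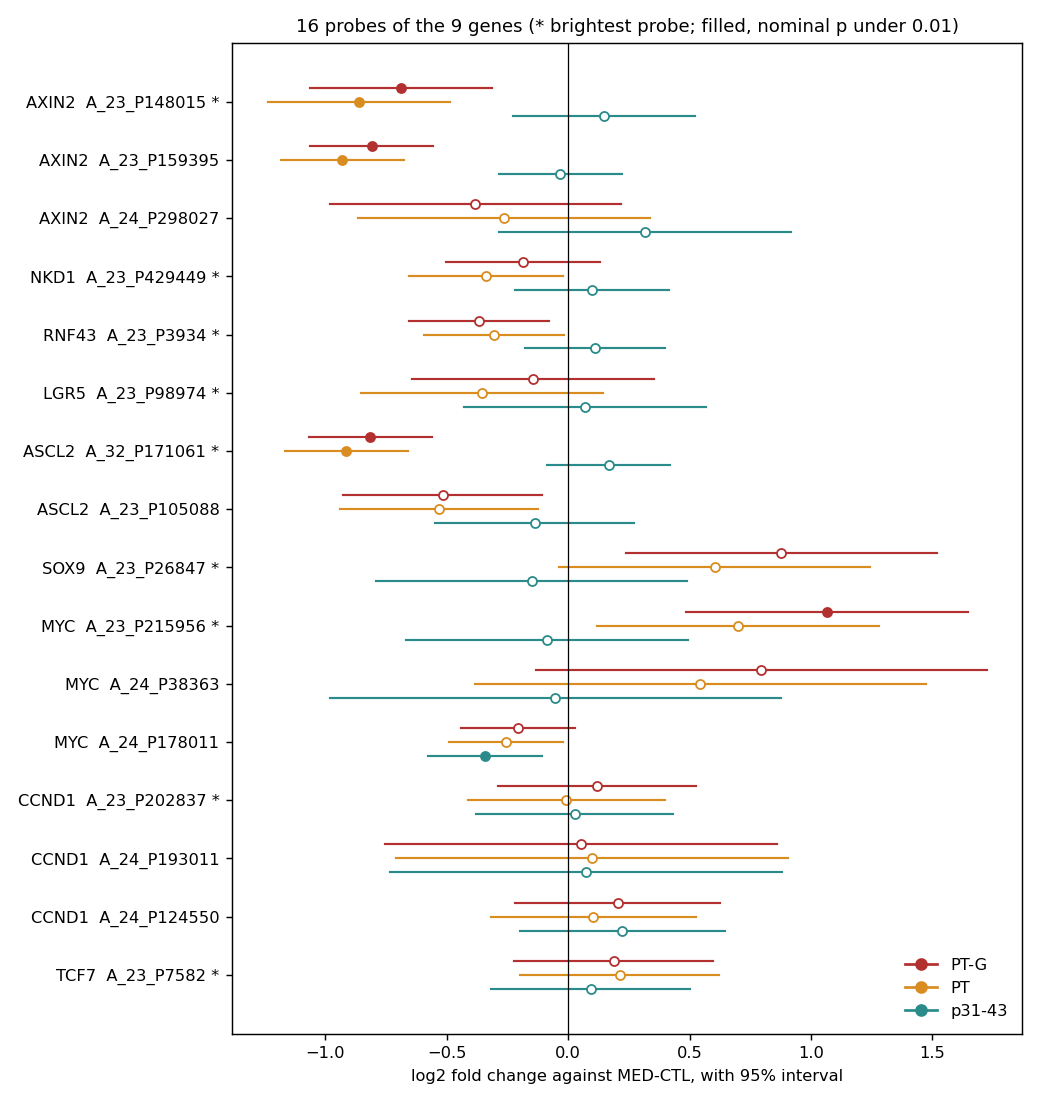
Log2 fold change against MED-CTL with its 95% interval for the 16 probes, by treatment, where filled points have a nominal p under 0.01 and a star marks the brightest probe of a gene. All AXIN2 and ASCL2 probes lie left of 0 for both digests, the brightest MYC probe and SOX9 lie right, and the p31-43 intervals include 0 for all but 1 MYC probe.

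Each of the 4 runs of arrays, grouped by a date that their names share, holds 1 array of each treatment, so the differences can be read within a run. PT replicate 3 in run 3 and p31-43 replicate 4 in run 4 were on a separate slide of 2 arrays, scanned on another day. Their differences from untreated cells thus mix treatment with slide and scan day, which cannot be told apart. AXIN2 was lower in 4 of 4 runs with PT-G, by 0.59 to 0.89, and in 4 of 4 with PT, by 0.59 to 1.31. ASCL2 was lower in all 4 runs with both, by 0.43 to 1.19 with PT-G and 0.63 to 1.17 with PT. MYC was higher in all 4 runs with both, by 0.63 to 1.55 and 0.47 to 0.92. TCF7 was higher in all 4 with both, by 0.09 to 0.29 and 0.11 to 0.30, a difference smaller than its spread between runs. The direction failed in 1 run each for SOX9 with PT, for RNF43 with either digest and for NKD1 and LGR5 with PT-G. With PT, the failures of SOX9 and RNF43 were in run 3, whose PT array was on the separate slide. CCND1 was higher in 3 of 4 runs with PT-G and in 2 of 4 with PT.

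Deviations from the group means correlated within a run with r of 0.629 to 0.858 for PT-G with MED-CTL and 0.538 to 0.706 for p31-43 with MED-CTL. For PT with MED-CTL they did so in 3 of the 4 runs, with r of 0.376 to 0.621, and not in run 3, with r of −0.0026, and for PT-G with PT r was 0.0522 in that run. The PT array of run 3 was the one on the separate slide and scan day, whose part in these low r was not tested. More probes were called with a block for the run or the replicate number. With the replicate number as a block, 7 of 16 probes were called for PT-G, and with the run as a block 8 for PT-G and 8 for PT. Calls over all probes can rise with a block too. With the slide as a block they were 4996 for PT-G and 4332 for PT, against 1404 and 1491 without. These were the highest of any setting. The totals with the replicate or run block are not given here, so the counts of 7 and 8 have no share beside them. A larger count with a block is thus not in itself particular to these genes. For PT-G, the replicate block added SOX9 (limma adjusted p = 0.0477), the second ASCL2 probe (adjusted p = 0.00914) and the second MYC probe (adjusted p = 0.0536), and the run block also TCF7 (adjusted p = 0.0894). For PT, the run block added MYC (limma adjusted p = 0.0369), NKD1 (adjusted p = 0.0210), LGR5 (adjusted p = 0.0719), TCF7 (adjusted p = 0.0512) and the second ASCL2 probe (adjusted p = 0.00513). RNF43 and CCND1 were called for neither digest with a block for the run.

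Whether gliadin itself adds to the effect of the enzyme mixture is the question of PT-G against PT. None of the 16 probes was called in limma, where 0.0903% of all probes were, none had a nominal p under 0.05, and the count was 0 in every alternative tried. The log2 differences of the brightest probes ran from −0.06 for RNF43 to 0.37 for MYC (95% interval −0.21 to 0.95), with a median of 0.15 against 0.0095 over all probes. For AXIN2 the difference was 0.17 (−0.20 to 0.55) and for ASCL2 0.10 (−0.15 to 0.35). The intervals of AXIN2 and ASCL2 do not reach a difference as large as the fall of either gene against untreated cells. They do hold smaller ones in either direction. The bound does not extend to MYC, whose interval passes its rise of 0.70 with PT. Nor does it extend to SOX9, with an interval up to 0.91 and a value of 0.60 with PT.

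The peptide comparison gave little. For p31-43 against MED-CTL, 1 of 16 probes was called, the MYC probe above, where 0.403% of all probes were called. That call was lost when any 1 of 6 arrays was left out, which were MED-CTL replicates 1, 2 and 3 and p31-43 replicates 2, 3 and 4. The brightest probes had a median log2 fold change of 0.09, with values from −0.15 (95% interval −0.79 to 0.49) for SOX9 to 0.17 for ASCL2. For AXIN2 the value was 0.15 (−0.23 to 0.52) and for MYC −0.09 (−0.67 to 0.49), so that a rise of MYC as large as with PT-G lies outside the interval.

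The cultures that received a digest can also be set against those that did not, which gives 8 arrays on each side. With PT-G and PT pooled against MED-CTL and p31-43 pooled, 8 of 16 probes were called, where 6.42% of all probes were, among them 6 lower, where 3.44% were, and 6 of the 9 genes by their brightest probe. At an adjusted p under 0.05, limma called 6, where 3.54% of all probes passed. AXIN2 fell by 0.85 (limma adjusted p = 0.00127), ASCL2 by 0.95 (adjusted p = 3.48e-05) and RNF43 by 0.39 (adjusted p = 0.0359). MYC rose by 0.93 (limma adjusted p = 0.0135) and SOX9 by 0.82 (adjusted p = 0.0491). NKD1 fell by 0.31 at the nominal threshold only (limma adjusted p = 0.155), a call lost without any 1 of 12 arrays, with values from −0.36 to −0.25 over all 16 omissions. The second ASCL2 probe fell by 0.46 (limma adjusted p = 0.0940), a call lost without any 1 of 7 arrays. The LGR5, TCF7 and CCND1 values of −0.28, 0.15 and 0.04 were not called. On 4 of the 16 probes, those of AXIN2 called in both digests and the brightest of ASCL2 and MYC, the pooled groups did not overlap, against 1.43% of all probes.

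Across the 16 arrays, after the mean of each run was subtracted, the genes fell on opposite sides. ASCL2 and NKD1 had an r of 0.91, AXIN2 and ASCL2 of 0.90, and AXIN2 and LGR5 of 0.82. MYC and SOX9 had an r of 0.92 with each other and of −0.77 and −0.69 with AXIN2, and RNF43 and SOX9 of −0.89. CCND1 stayed between −0.17 and 0.37 with all others. These values describe 16 arrays that share the contrast between digests and other cultures, and genes that differ in it correlate by construction. Outside the 9 genes, among 11141 named genes compared by the same measure, SUV420H1, TTC5 and POLR3B were most like AXIN2 (r of 0.97, 0.97 and 0.96) and ARHGEF5 and PHLDA1 were among those most like MYC (each 0.97).

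**Figure D3:**
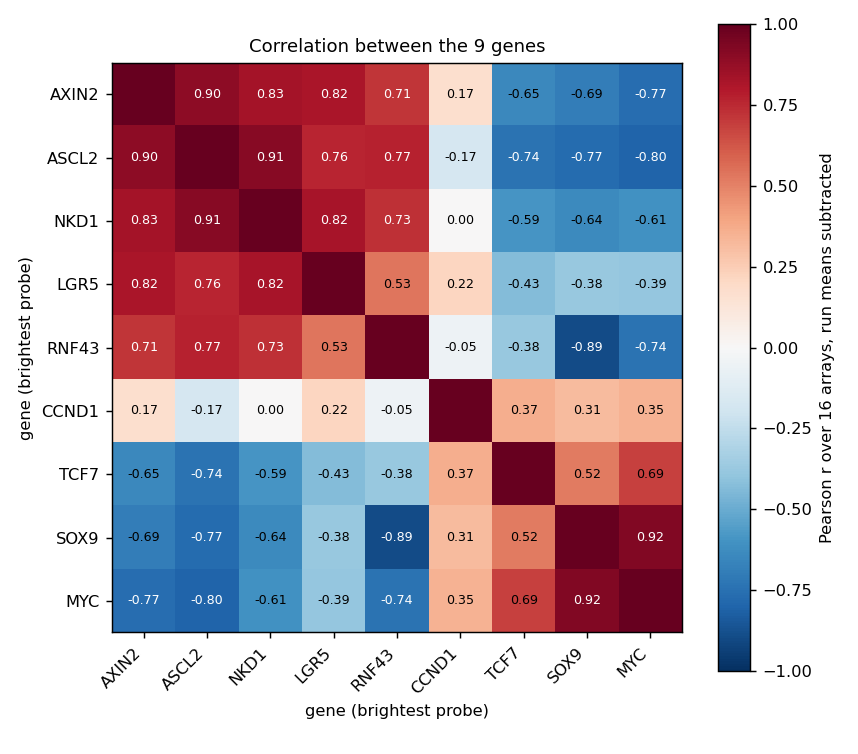
Pearson r between the brightest probes of the 9 genes over 16 arrays after subtraction of run means, from −1 in blue to 1 in red. AXIN2, ASCL2, NKD1, LGR5 and RNF43 form one block of positive r, from 0.53 to 0.91, and SOX9, MYC and TCF7 another, from 0.52 to 0.92.

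Some of these genes differed more between periods of the experiment than between treatments. TCF7 averaged 10.96 on the 8 arrays of the early runs (1 and 2) and 10.50 on the 8 of the late runs (3 and 4), with all early arrays at 10.72 or above and all late ones at 10.60 or below. A CCND1 probe 9594 bases from the brightest averaged 11.83 early and 10.88 late, also without overlap. The brightest CCND1 probe averaged 11.93 and 11.88, and did overlap. Thus 2 of the 16 probes were higher in every early than in every late array, where 2.97% of all probes were, and none was lower. Cells, slides and scan days all changed between the periods, and their parts cannot be told apart.

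**Figure D4:**
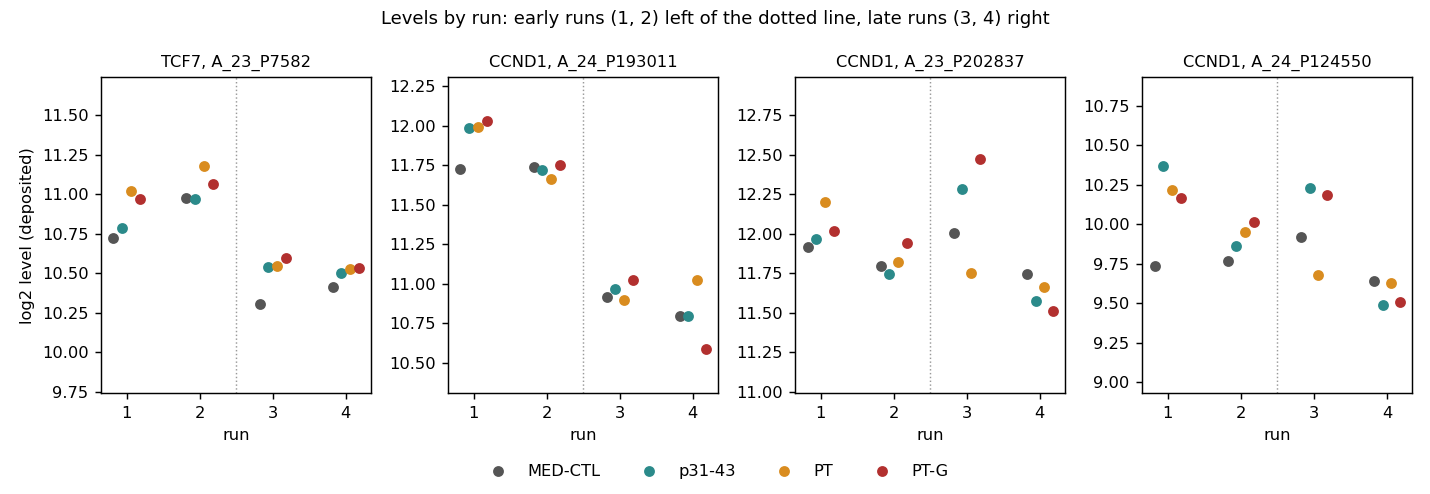
Log2 level of the TCF7 probe and the 3 CCND1 probes by run, 1 point per array coloured by treatment, with early runs left of the dotted line and late runs right. TCF7 and the CCND1 probe A_24_P193011 drop between the periods in all 4 treatments, and the other CCND1 probes overlap.

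The rest of the pathway was read on 122 other genes, by their brightest probes. For PT-G and for PT, 8 of the 122 (6.56%) were called in each, where 3.43% and 3.64% of all probes were. Pooled, 14 (11.5%) were called, where 6.42% of all probes were. For p31-43 and PT-G against PT none was in limma, where 0.403% and 0.0903% of all probes were. The same shares belong beside the counts of each list below, and they include dim probes. The median log2 fold change of the 122 genes was 0.04 for PT-G and 0.01 for PT. Among 32 further intestinal target genes, 2 were higher with PT-G, with none lower, and for PT 2 were higher and 1 lower. FOSL1, an AP-1 subunit that also answers growth factor signals, rose by 1.77 with PT-G (limma adjusted p = 0.0295) and 1.73 with PT (adjusted p = 0.0368). ID2, an inhibitor of helix-loop-helix factors, rose by 0.78 with PT-G (limma adjusted p = 0.0425) and by 0.56 with PT (adjusted p = 0.195). CDCA7, a chromatin factor of dividing cells, fell by 0.52 with PT (limma adjusted p = 0.243) and had a value of −0.41 with PT-G. In the pooled comparison SP5, a transcription factor that follows beta-catenin closely, was also lower, by −0.30 (limma adjusted p = 0.0490), and VEGFA, the vascular growth factor, higher, by 0.49 (adjusted p = 0.0475). The list median was 0.13 for PT-G and 0.11 for PT.

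Frizzled receptors changed in opposite directions. Of 17 receptors and co-receptors, FZD1 fell by 0.91 with PT-G (limma adjusted p = 0.0425) and by 0.97 with PT (adjusted p = 0.0339). FZD9 rose by 0.55 with PT-G (limma adjusted p = 0.0168) and 0.61 with PT (adjusted p = 0.0102). For both genes, all digest arrays were separated from all untreated arrays. The other 15 were not called in either digest.

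Upstream of the receptors, 24 of 25 listed ligands, R-spondins and ligand-processing genes were on the array, and 19 of them were above background on at least 1 array. WNT1 was the one called in the digests, by 0.51 with PT-G (limma adjusted p = 0.118) and 0.46 with PT (adjusted p = 0.178), from a dim mean level of 6.71 in untreated cells. WNT11 was lower in the pooled comparison only, by −0.52 (limma adjusted p = 0.0868). Of 13 extracellular inhibitors, KREMEN1 and KREMEN2, receptors that take DKK-bound LRP6 off the membrane, were both higher. KREMEN1 rose by 0.35 with PT-G (limma adjusted p = 0.177) and 0.47 with PT (adjusted p = 0.0490), and KREMEN2 by 0.52 (adjusted p = 0.0717) and 0.47 (adjusted p = 0.111).

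Within the cell, few genes were called. Of 19 genes of the destruction complex and Dishevelled, FBXW11, a ubiquitin ligase subunit that marks beta-catenin, rose by 0.31 with PT-G (limma adjusted p = 0.132), and none was called for PT. APC2 was higher by 0.38 in the pooled comparison (limma adjusted p = 0.0362). CTNNB1, which encodes beta-catenin, had log2 fold changes of −0.20 for PT-G and −0.65 for PT with an SE of 0.67 for each. None of 17 nuclear partners of beta-catenin was called in any of the 5 comparisons.

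**Figure D5:**
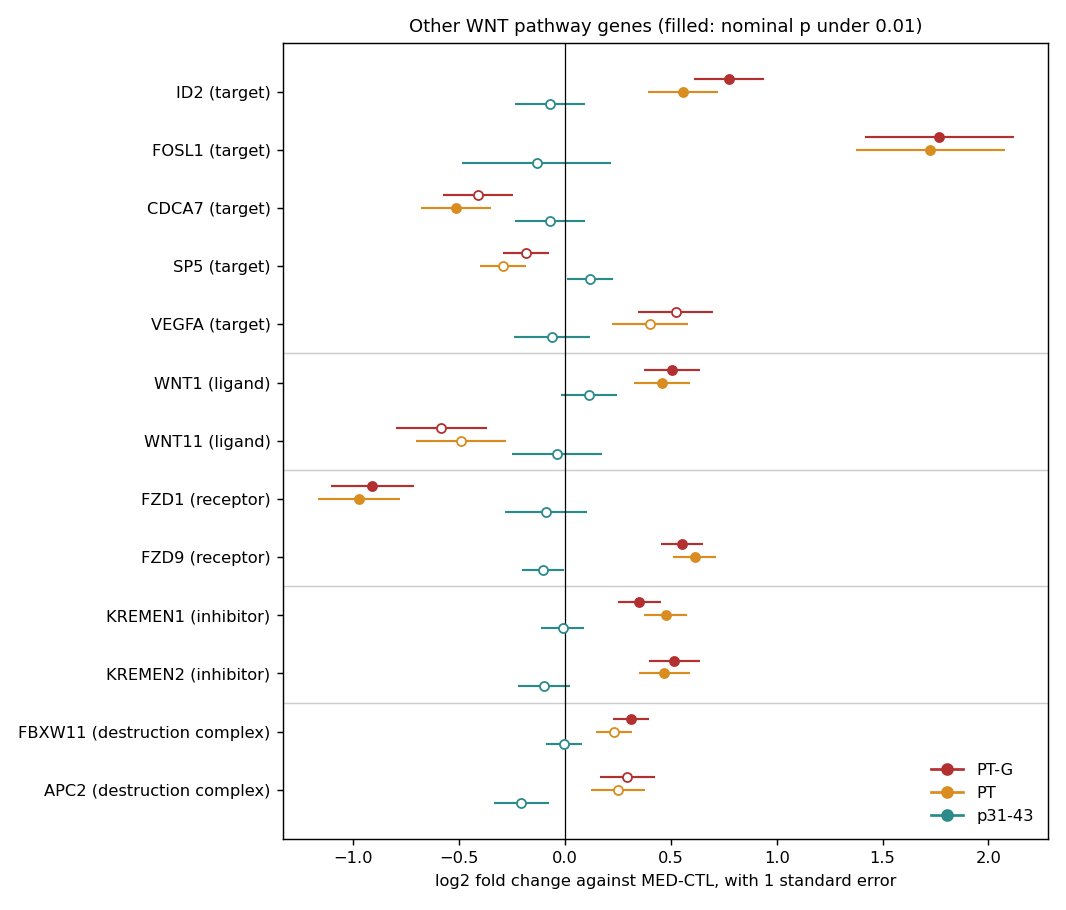
Log2 fold change against MED-CTL with 1 standard error for the other WNT pathway genes named in the text, grouped by role, with filled points at a nominal p under 0.01. FOSL1 lies farthest right and FZD1 farthest left with both digests, and the p31-43 points lie around 0.

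The cells carried the markers of their label. All 10 markers of intestinal epithelium were above background on all 16 arrays, and the sum of their log2 levels ran from 138.55 to 141.35 in MED-CTL, 137.89 to 141.54 in p31-43, 137.61 to 141.30 in PT and 137.92 to 141.54 in PT-G. Of 6 leukocyte markers 3 were well above background on all 16 arrays, LCP1, an actin-bundling protein, at a mean log2 level of 13.77, CD14 at 9.65 and CD3E at 7.06, and 3, the defining PTPRC and CD53 among them, on none. The sums over the 6 ran from 47.46 to 48.69 over all groups. Of 8 fibroblast and endothelial markers 6 were above background on all arrays and CDH5 on none, with sums from 62.49 to 67.66. KRT20, a keratin of differentiated enterocytes, rose by 0.63 with PT-G (limma adjusted p = 0.0250) and 0.49 with PT (adjusted p = 0.0930). It was the only 1 of the 10 epithelial markers called, and 6 of the 10 were below 0 for PT-G and 7 for PT. CDX2, for 1, had means of 10.59 in MED-CTL, 9.87 in PT-G and 9.95 in PT and was not called. COL3A1, a fibrillar collagen, fell by 0.53 with PT (limma adjusted p = 0.273). On KRT20 the digest arrays lay above all untreated ones, as on MYC, and the part of any of these markers in the results above was not tested.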

How the data were processed

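RNA from 16 Caco-2 cultures in 4 groups had been hybridised to Agilent one-colour arrays (design 014850, Feature Extraction 9.5.3.1 per the file headers). The authors deposited scanner files with spot intensity on a linear scale and log2 values, without background correction, which were recomputed to within 5e-09 from each spot's median foreground intensity when the quantiles method was run on the 45015 spots, controls included. The other deposited columns used are marks for controls, outliers and background. The log2 values were used here. The precision depends on signal over background and on the number of arrays: median intensities ran from 153 to 410, with background medians of 48 to 65.

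Spots marked as outliers (0.256%) were left out, spots of a probe averaged, and 18 probes with fewer than 3 arrays in a group dropped. A single limma fit (limma 3.58.1, R 4.3.3) covered all 4 groups and the 40982 probes left, with 12 residual degrees of freedom and 1.9 from the prior, moderated 2-sided tests, and p-values adjusted by Benjamini-Hochberg per comparison. The fit was tested on simulated data with independent noise and no shifts shared by a run. That test cannot show the error rate on these arrays, which do share such shifts. The p-values measure the spread between 4 experiments on a single cell line. With 4 arrays a group an exact permutation test cannot go below 0.0286, above the threshold of 0.01, and was not used.

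The genes, the gene lists and the pooling of groups were chosen with earlier results of these data known. Genes named outside the 9 are, per list and comparison, at most 4 of smallest nominal p under 0.01, and those of the 3 most like AXIN2 and MYC in pattern that are reported here; APC and CTNNB1 were named beside these for their role, and markers as a list. Names are those of the array, except that 6 listed genes were found under an older name (VEGFA as VEGF), and RSPO4 was not matched. Deviations from group means were also correlated between arrays of the same replicate number in the labels. For PT-G with MED-CTL r was 0.396 to 0.858, and for p31-43 with MED-CTL 0.262 to 0.706. For PT with MED-CTL it was −0.0026 to 0.412, and for PT-G with PT 0.0522 to 0.696. The numbers follow the runs in PT-G, PT and p31-43. MED-CTL replicates 1 and 2 belong to the other's run, so there the numbers do not pair the arrays by run. Alternatives were the scanner's background-subtracted signal set to a common 75th percentile, normexp (offset 50), the quantiles method without controls, median scaling, a filter on dim probes, marked spots kept, blocks for replicate number, run, slide and period, array weights (statmod 1.5.0), an intensity trend, only the groups compared, and each array left out. A scan day block, each period alone and leaving out the slide of 2 arrays were added after seeing the data. The re-annotation of probes in the paper was not used.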

Additional observations from a re-analysis of the deposited data

How the results depend on the processing

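Of the values recomputed for the 16 probes in 5 comparisons, 2683 kept the direction and the side of the threshold or moved less than the spread, 45 lost a call, 89 gained one, 63 moved without a call, and none reversed a called direction. For PT-G against MED-CTL, where 4 probes were called, the count was 7 with the replicate block, 8 with the run and 8 with the slide as a block, 7 with array weights, 7 in the early runs alone and 2 in the late runs alone, and 4 to 7 with 1 array left out. For PT against MED-CTL, with 3 called, it was 6 with the replicate block, whose numbers swap MED-CTL replicates 1 and 2 between runs. It was 8 with the run, 9 with the slide and 5 with the period as a block. Array weights gave 8, the early runs alone 8, and leaving 1 array out 3 to 5. The 1 call for p31-43 became 0 with normexp, the filter on dim probes, the intensity trend, only the groups compared, the late runs alone and without the slide of 2 arrays, and was 0 to 1 with 1 array left out. For PT-G against PT the count stayed 0, also with 1 array left out. Pooled, 8 calls became 3 in the late runs alone, and 6 to 9 with 1 array left out. The replicate block changed no other of these counts by over 1.5 times. The AXIN2 call on the brightest probe was lost in either period alone for PT-G (−0.60 early, −0.77 late), and in the early runs alone for PT (−0.62); MYC for PT-G was lost with only the groups compared and in the late runs alone. Over all probes, the slide as a block called 4996 for PT-G and 4332 for PT, against 1404 and 1491. The late runs alone called the fewest, 494 and 577. The totals of the other settings lay between these and are not given here. The counts of the 16 probes are to be read beside this range. Median scaling moved the median of all probes to −0.11 for PT. Only the groups compared has no separate value for the pooled contrast, which uses all groups. Dim signal limits LGR5, the second ASCL2 and MYC probes and the AXIN2 probe farthest from the brightest.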
